A study of Caenorhabditis elegans with 2 samples.

Results

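The cap-binding and eIF5A genes of Caenorhabditis elegans comprise 9 listed protein-coding genes of 19973 on the nuclear chromosomes, and they were examined for promoter peaks of the tagged transcription factor JUN-1. The genes encode both eIF5A proteins (iff-1, iff-2), the 5 eIF4E proteins (ife-1 to ife-5), the eIF4G scaffold (ifg-1) and the eIF4E-binding protein IFET-1 (ifet-1). They were chosen by name with earlier results of these peak lists in view, so the signals below describe them and no test was made. Chromatin came from whole L4 larvae, the last larval stage, as 2 biological replicates of 1 group. The strain was OP234, with the mutation unc-119(ed3) on chromosome III and the integrated transgene wgIs234, which carries eGFP-tagged jun-1; sexes were pooled, and the antibody label reads jun-1. Both replicates carry the transgene and the mutation, the labels do not say in which cells the tagged protein was made, and whole larvae mix germ line and soma, so a peak cannot be assigned to either tissue.

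Each list gives regions with a summit and a signal, the authors' own value on an unstated scale, so signals are compared within a list and ranked from 1 for the strongest. The replicate 1 list held 19396 regions, the replicate 2 list 23742 and the joint list of both replicates 13085. As deposited, these lists hold peaks and background together, as input to the reproducibility step, so a summit in them alone may be background. The 899 strongest joint regions passed the authors' reproducibility threshold and are called reproducible here. Each region also has a -log10 q, which is low where support is weak. Its lowest value was 0.0176 in the joint list and 2.38 among the reproducible regions. The read depth is unknown, because the lists hold no counts. Promoter windows reached 1000 bp before and 200 bp past each annotated transcript start of a gene.

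Translation of most messenger RNAs begins when eIF4E grips the methylated cap and eIF4G joins it to the helicase and the small ribosomal subunit, while proteins such as IFET-1, the relative of vertebrate 4E-T, hold eIF4E in a repressed state. Many nematode messages receive a trimethylguanosine cap by trans-splicing. IFE-1, IFE-2 and IFE-5 are known to accept both kinds of cap, and IFE-3 and IFE-4 the monomethyl cap only. eIF5A, which carries the modified amino acid hypusine, relieves stalled ribosomes. Several of these factors have a copy used chiefly in germ cells. IFF-1 is needed for germ cell proliferation, whereas IFF-2 serves the soma. IFE-1, IFE-3 and IFE-5 are germline-linked, and IFE-2 and IFE-4 are mainly somatic.

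The sequences at the joint-list summits are shown for the eIF5A pair, for the 2 somatic eIF4E genes and for ifet-1. Those of the germline-linked ife-3 and of ifg-1 are not shown. Each runs along the coding strand of its gene for 101 bases centred on the summit, on WBcel235 (ce11) from the RefSeq genome. Capitals mark a GAGAGA repeat, the only one of 4 searched motifs that these 5 windows held.
iff-1, chrIII:9747239-9747339, minus strand: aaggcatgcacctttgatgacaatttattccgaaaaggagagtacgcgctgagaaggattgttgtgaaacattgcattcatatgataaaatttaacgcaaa
iff-2, chrII:8561393-8561493, minus strand: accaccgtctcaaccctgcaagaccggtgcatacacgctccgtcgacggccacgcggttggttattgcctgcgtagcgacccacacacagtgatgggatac
ife-2, chrX:382868-382968, minus strand: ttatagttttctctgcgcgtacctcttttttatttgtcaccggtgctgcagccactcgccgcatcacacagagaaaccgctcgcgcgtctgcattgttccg
ife-4, chrX:1103867-1103967, plus strand: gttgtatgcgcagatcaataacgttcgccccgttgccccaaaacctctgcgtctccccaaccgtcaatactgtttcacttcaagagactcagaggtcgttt
ifet-1, chrIII:4475607-4475707, minus strand: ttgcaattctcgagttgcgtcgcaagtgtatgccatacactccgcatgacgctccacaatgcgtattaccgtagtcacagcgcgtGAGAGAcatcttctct

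None of the 4 germline-linked paralogues had a reproducible promoter summit, whereas 2 of the 3 somatic ones, iff-2 and ife-2, did. The third reproducible site lay at ifet-1, so 3 of the 9 genes (33.3%) carried one, against 3.35% of all protein-coding genes. In the joint list before the threshold, which also holds background, the counts were 2 of 4 germline-linked and 3 of 3 somatic genes. Over all members this was 7 of 9 (77.8%), against 24.7% of all protein-coding genes. It fell to 4 of 9 with windows from 500 bp upstream (19.1% of all genes) and when a summit counted for the gene of nearest start alone (20.6%), without ife-3, ifg-1 and ifet-1 in both cases. It rose to 8 of 9, with the germline-linked ife-1, when any overlap of a region with the window counted (28%). The members were picked with these lists known, so nothing is read from these shares, and 4 and 3 genes are too few to say that the sets differ.

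**Figure D1:**
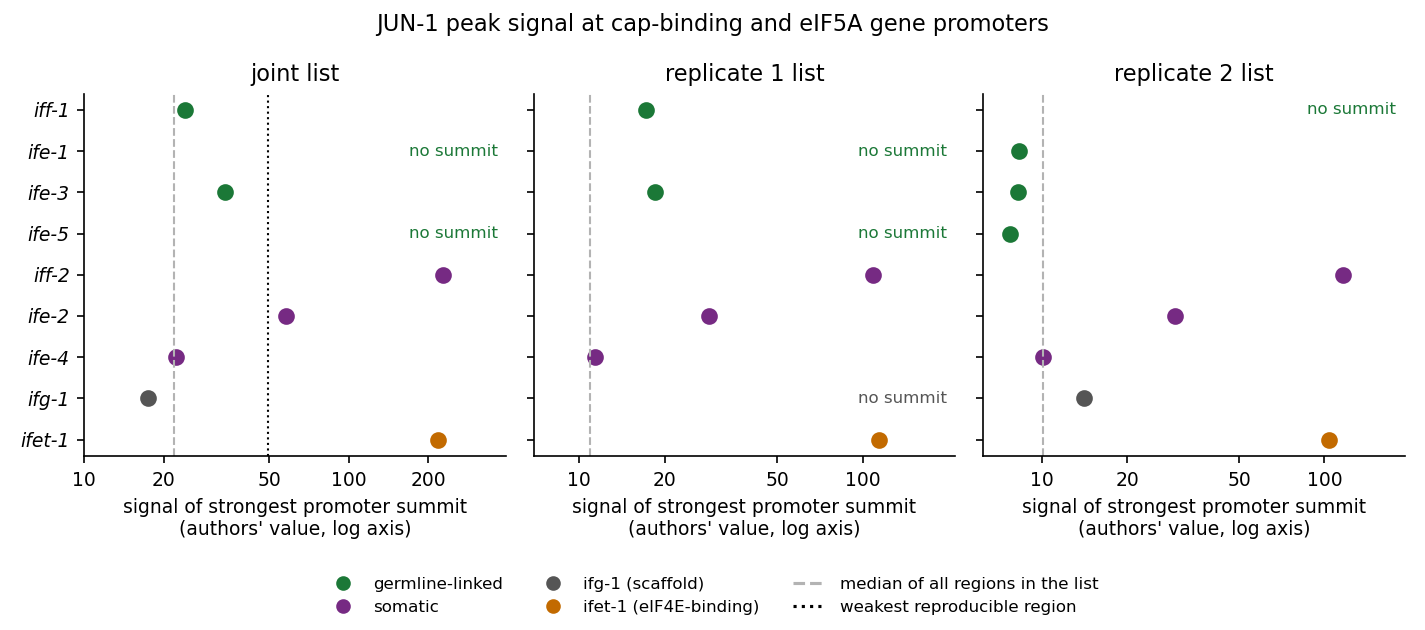
Signal of the strongest promoter summit of each gene (horizontal, log axis, the authors' value) in the joint, replicate 1 and replicate 2 lists, with germline-linked genes above somatic ones. Dots are single values without error; the dashed line is the median of all regions in the list and the dotted line the weakest reproducible region (49.6). iff-2 and ifet-1 lie far right in every panel, at 227 and 218 in the joint list, and ife-1 and ife-5 have no joint summit.

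The eIF5A paralogues stood far apart in promoter signal. For iff-1 the signal was 23.9 in the joint list (rank 5069) and 17.2 in replicate 1 (rank 2660), and the replicate 2 list held no summit in its windows. For iff-2 the signal was 227 in the joint list (rank 28), 109 in replicate 1 (rank 35) and 117 in replicate 2 (rank 30). The iff-2 site was thus among the 35 strongest of each list, and the iff-1 site lay close to the joint median of 21.8. In replicate 1 the iff-1 signal stood above the median of 10.9, at or above 86.3% of the regions. The encoded proteins are alike, with 135 of 161 aligned residues identical (83.9%), so the difference in signal lay between close paralogues.

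Both sites lay directly before their genes. The iff-1 summit was 96 bp upstream of iff-1 and 183 bp upstream of cdk-1, the mitotic kinase gene. The 2 genes are transcribed away from each other from starts 279 bp apart, and the summit lies between these starts. The joint region of iff-2, chrII:8561369-8561513, ended 2 bp short of the outermost start, and its summit lay 76 bp upstream. The replicate summits lay at 76 bp and 86 bp upstream. The window of F54C9.14, which is transcribed away from iff-2, also held the summit, 859 bp from its start. With 145 bp, the region was narrow, since 94.8% of the reproducible regions had the common width of 376 bp. G and C made up 36.6% of the 101 bases at iff-1, against 60.4% at iff-2. The median of the 899 reproducible windows was 48.5%.

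**Figure D2:**
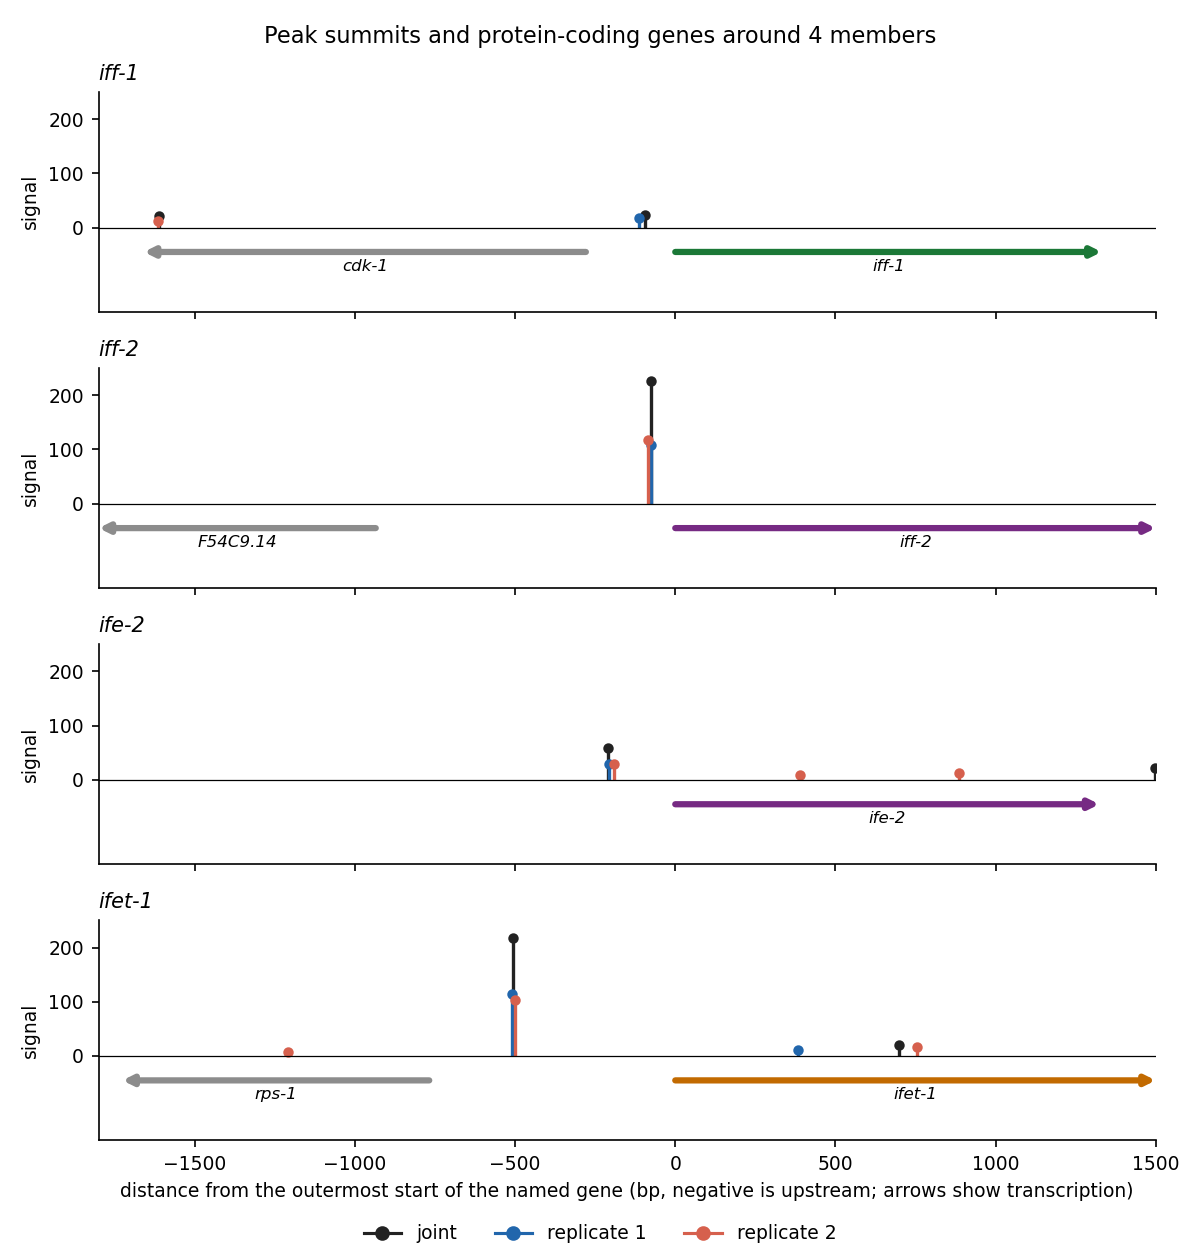
Peak summits (height is the authors' signal) around iff-1, iff-2, ife-2 and ifet-1, by distance in bp from the outermost start of the named gene, with neighbouring protein-coding genes as grey arrows in the direction of transcription. Genes with under 300 bp in view are not drawn. The tall summits stand 76 bp before iff-2 and 507 bp before ifet-1, where rps-1 is nearer, and the iff-1 summit is low.

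Among the eIF4E genes, ife-2 had the strongest summit in each of the 3 lists. The germline-linked ife-1 had no promoter summit in the joint and replicate 1 lists and one of 8.26 in replicate 2 (rank 18543). The germline-linked ife-5 likewise had only a replicate 2 summit, of 7.69 (rank 21391). Both values lay below the replicate 2 median of 10.1, and the ife-1 summit, 994 bp upstream, was just inside its window and nearer to the start of dro-1. Beyond the 200 bp edge of its window, in an exon of ife-1, each list also held a summit. It was 22.4 in the joint list, 246 bp past a start. In replicate 1 it was 9.58 at 319 bp, and in replicate 2 it was 11.9 at 247 bp. The somatic ife-2 had 58.1 in the joint list (rank 626), 28.8 in replicate 1 (rank 735) and 29.6 in replicate 2 (rank 725). Its summits lay 190 to 209 bp upstream, in intergenic sequence on chromosome X, in no other protein-coding gene's window. IFE-1 and IFE-2, a germline-linked and a somatic protein, share 65.3% of aligned residues, and IFE-1 and IFE-5 share 79.0%.

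The remaining eIF4E genes had no reproducible summit. That of ife-3 moved between all lists, and that of ife-4 moved in replicate 2 alone. For ife-3, the germline-linked gene needed for embryonic viability, the signal was 34.0 in the joint list (rank 2136), 18.4 in replicate 1 (rank 2205) and 8.24 in replicate 2 (rank 18612). These are 3 different places, 863, 752 and 289 bp upstream, and the first 2 fall in an exon of the small gene B0348.10. A stronger replicate 2 summit of 26.5 (rank 957) lay 1053 bp upstream, just outside the window. Close to it, 1073 bp upstream, the joint list held a further summit of 23.4 (rank 5410). For ife-4, a somatic gene on chromosome X, the signal was 22.3 in the joint list (rank 6114), 11.4 in replicate 1 (rank 8535) and 10.1 in replicate 2 (rank 11893), near the median of each list. The ife-4 summit lay 295 bp upstream in the joint and replicate 1 lists and 160 bp upstream in replicate 2. Its -log10 q was 0.198 in replicate 1 and 0.178 in replicate 2. The weakest reproducible region had a signal of 49.6. The member nearest above it was ife-2 at 58.1 (rank 626 of 899), and the nearest below was ife-3 at 34.0 (rank 2136 of 13085). The ife-3 signal was at or above that of 83.7% of all joint regions. In replicate 1 this share was 88.6%, and in replicate 2 it was 21.6%.

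The scaffold and the eIF4E-binding protein differed widely in promoter signal. The ifg-1 gene, whose eIF4G product bridges cap and ribosome, had 17.4 in the joint list (rank 11993), no summit in replicate 1 and 14.1 in replicate 2 (rank 4705). That summit lay 885 bp upstream in an exon of M110.3 and nearer to that gene's start. The ifet-1 gene had 218 in the joint list (rank 32), 114 in replicate 1 (rank 29) and 104 in replicate 2 (rank 38). Its summits lay 501 to 509 bp upstream, in a region of 156 bp at chrIII:4475594-4475749. The summit also fell in the promoter window of rps-1, a gene of the small ribosomal subunit that is transcribed the other way. The joint summit lay 507 bp from the start of ifet-1 and 261 bp from that of rps-1. The lists do not resolve which gene the peak belongs to. IFET-1 represses translation in germ cells, so whether any gene of chiefly germline function among the 9 had a reproducible site depends on this assignment.

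Ordered by joint signal, the genes ran iff-2, ifet-1, ife-2, ife-3, iff-1, ife-4 and ifg-1, with no joint promoter summit for ife-1 and ife-5. The joint -log10 q was 3.01 for iff-2 and ifet-1, 2.40 for ife-2 and 1.17 for ife-3. It was 0.299 for iff-1, 0.213 for ife-4 and 0.0285 for ifg-1, so these summits had little support as peaks. The order of iff-2 and ifet-1 turned round between the replicates, so they were not separable. ife-2 came next after these 2 in both replicates. Below it the order changed, since ifg-1 stood above ife-4 in replicate 2 and was absent from replicate 1. Both replicate lists held a promoter summit for 1 of 4 germline-linked genes (ife-3) and for all 3 somatic genes, against 20.4% of all protein-coding genes. With windows from 500 bp, or nearest starts only, ife-3 was no longer among them. Windows from 2000 bp upstream added the germline-linked iff-1 (30% of all genes). Any overlap of a region with the window added the germline-linked ife-1 (24%). Singly, the replicate 1 list held one for 6 of the 9 members (31.3% of all protein-coding genes) and the replicate 2 list for 8 (35.6%).

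**Figure D3:**
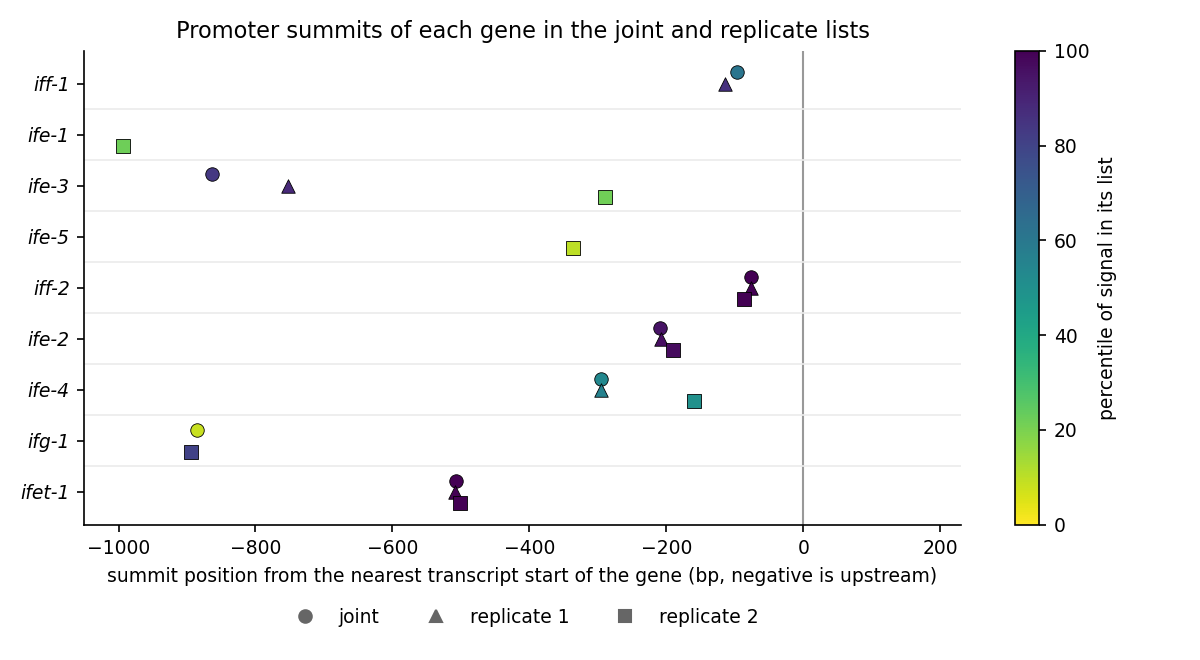
Position of each promoter summit from the nearest transcript start of its gene (bp, negative is upstream), in the joint (circle), replicate 1 (triangle) and replicate 2 (square) lists, coloured by the percentile of its signal in its list. The marks of iff-2, ife-2 and ifet-1 coincide within 19 bp across lists, and those of ife-3 lie from 289 to 863 bp upstream.

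Summits of the 3 members with a reproducible site agreed closely in position. For iff-2, ife-2 and ifet-1 the joint summit had a summit of each replicate within 19 bp. For iff-1 and ife-4 only replicate 1 had one within 100 bp, at 18 bp and 0 bp, and for ifg-1 only replicate 2, at 9 bp. For ife-3 the nearest were 111 bp away in replicate 1 and 190 bp in replicate 2. Position and signal come from the same calls, so this adds no separate evidence, and the share of all joint summits so matched is not given here. None of the promoter summits of the members lay within 250 bp of a tRNA, snoRNA, snRNA, miRNA or rRNA gene, the nearest being the snoRNA gene F54C9.12 at 671 bp from the iff-2 summit. The share of all promoter summits that near to such a gene is not given here, so nothing is read from this.

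Of 4 motifs, only TGANTCA occurred in members from 250 bp before to 50 bp after the outermost start. This shorter stretch is what promoter means in this paragraph. Searched on both strands were GAGAGA, the AP-1 site TGANTCA, the CRE site TGACGTCA and the E-box CACGTG. Of the 3 reproducible windows shown above, that of ifet-1 held GAGAGA, from 35 to 40 bp downstream of the summit along the coding strand, against 29.6% of all 899 reproducible windows. No member held GAGAGA within 250 bp before to 50 bp after its outermost start, against 21.8% of all 19973 promoters. TGANTCA lay in the promoters of the germline-linked iff-1 and ife-1 (2 of 9, 22.2%, against 10.4% of all promoters), and in 4.45% of reproducible windows. The CRE site was in no member promoter (1.51% of all promoters), and CACGTG in none (5.82%), with 1 copy at the weak ifg-1 summit. The longest run of bases shared by any 2 of the iff-2, ife-2 and ifet-1 windows was 8 bp, where the median against the other reproducible windows was 7 bp for each of them. Absence of these letters in these windows says nothing of which factor was bound.

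Genes with related roles in initiation, cap handling, decapping, eIF5A modification and germline RNA control were counted beside the members. Over 6 lists, 68 of 73 symbols were in the annotation, and 6 of the 68 (8.82%) had a reproducible promoter summit, against 3.35% of all protein-coding genes. In the list of cap handling and mRNA activation 2 of 10 did. These were drr-2, the eIF4H relative, with a joint signal of 219 (rank 30; 109 in replicate 1 and 110 in replicate 2), and the capping enzyme gene cel-1 with 66.3. The drr-2 summit lay nearer to the start of set-16, a histone methyltransferase gene. The poly(A)-binding protein gene pab-1 had 20.9 in the joint list, below the threshold, and the eIF4A gene inf-1 had no joint summit.

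The reproducible counts of the other lists stand beside the same 3.35% of all protein-coding genes. Decapping and P-body genes had 2 of 10, namely cgh-1, a helicase gene of germline RNA particles, with 65.4, and lsm-3 with 53.3. Of 13 eIF3 genes, eif-3.C (82.96) and eif-3.J (59.1) had one. The list of eIF1, eIF2, eIF2B and eIF6 genes, with the eIF5B gene iffb-1, had none of 13, its highest being eif-2Bgamma at 48.3, just under the threshold. The symbol eif-5 did not match the annotation, so eIF5 itself was not analysed here. dhps-1 and dohh-1, which encode the enzymes that make hypusine on eIF5A, had no joint summit, and neither did car-1, which encodes a partner of CGH-1. Of 20 germline RNA regulators, such as gld-1 and nos-3, none had a reproducible summit, against 3.35% of all protein-coding genes. Nothing is read from none in 20 at that share. A joint summit was found for 3 (15%, against 24.7% of all protein-coding genes).

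**Figure D4:**
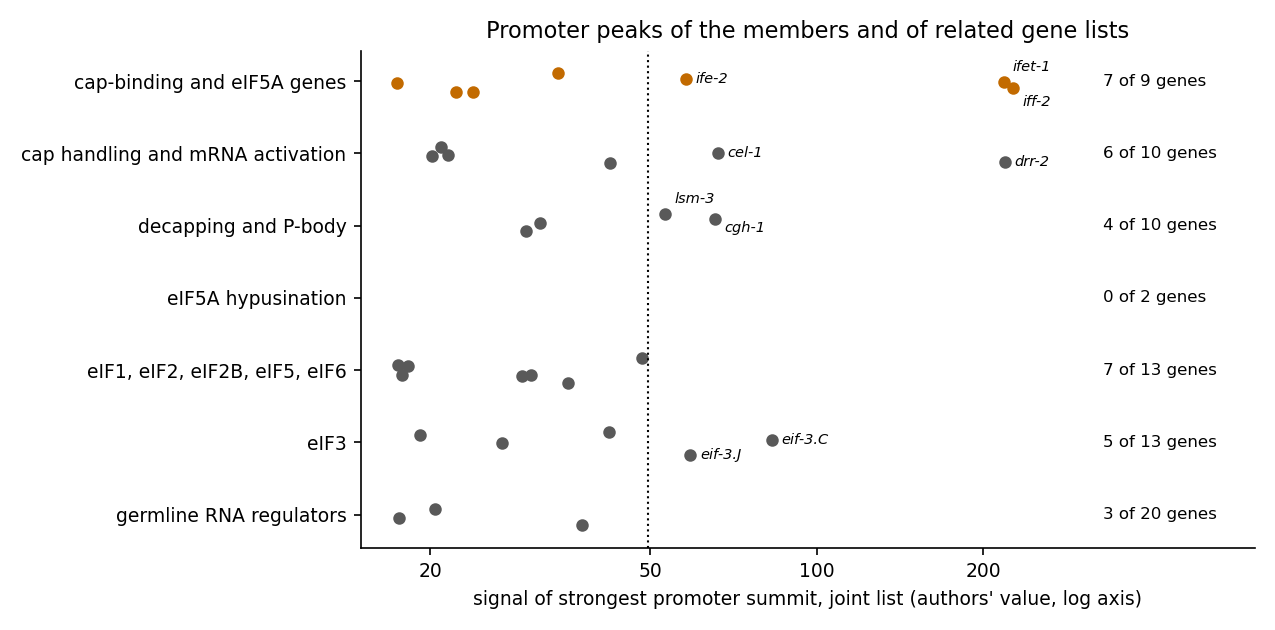
Signal of the strongest joint-list promoter summit (log axis, the authors' value) for the cap-binding and eIF5A genes and for 6 related lists, one dot per gene with a joint summit; the number of such genes stands at the right and the dotted line is the weakest reproducible region (49.6). drr-2 at 219 is the one related gene near iff-2 and ifet-1.

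By rank, the protein-coding genes next above the iff-2 site in the joint list were cox-5A (252), his-37 (242) and rpl-35 (239). Those next below were rpl-20 and Y17G9B.5, which share 1 summit (220), and drr-2 (219). The drr-2 summit also lay in the window of set-16 and nearer to the start of that gene. This likeness is in joint signal over 1 list. iff-2 ranked 15 and ifet-1 21 among the 4924 genes with a joint summit in a promoter window.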

How the data were processed

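Peak lists of JUN-1 chromatin immunoprecipitation from 2 biological replicates were read on the ce11 build. Per the deposited descriptions, the authors called regions from alignments together with a control; the sources used here name neither aligner nor caller. The deposited signal per peak (column 7) has no stated scale and was used to rank and describe regions within a list. The deposited -log10 q-value (column 9) was read and set no threshold. The ce10 lists were not used here, since no annotation of that build was at hand.

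Summits were set against Ensembl release 115 annotation of WBcel235, which is ce11, with the ends of promoter windows included. The members, their division into germline-linked and somatic, and the lists were chosen with earlier results of these data known. Named genes were all members, genes sharing their summits, reproducible genes of the lists, 5 genes of near role and the genes next in rank to iff-2; other neighbours were named after their values were seen. No test was made, since 1 group has no contrast and the rule used the signals. Whether cultures were separate is not stated. Proteins were translated from the longest coding sequence and aligned globally (BLOSUM62). Window assignment was tested on simulated summits. Alternatives changed the window, the assignment, the threshold and the replicate. The software was Biopython 1.88, numpy 2.4.6, pandas 2.3.3 and matplotlib 3.10.9 under Python 3.11.15.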

Additional observations from a re-analysis of the deposited data

How the results depend on the processing

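Some alternatives are able to add calls. Windows from 2000 bp upstream and any overlap of a region with the window gave no germline-linked gene a reproducible promoter summit. The share of all protein-coding genes with one was 4.5% and 3.6%. The strongest 899 regions of a single replicate list, which carry no reproducibility call, also held no promoter summit of a germline-linked gene. Their share of all protein-coding genes was 3.12% without replicate 1 and 3.27% without replicate 2. The remaining alternatives can only remove calls. ifet-1 lost its count with windows from 500 bp upstream (2.58% of all genes) and when each summit went only to the nearest start (2.53%), which was that of rps-1, so that 2 of the 9 genes remained. ife-2 was lost among the 449 strongest reproducible regions (1.79% of all genes), which left 1 somatic gene and 2 genes of the related lists (drr-2 and eif-3.C). With windows from 500 bp, and likewise with nearest starts only, 4 members had a joint summit (19.1% and 20.6% of all genes) and 3 had one in both replicate lists (14.4% and 16.3%). Windows from 2000 bp gave 7 members in the joint list (32.7% of all genes) and 6 in both replicate lists (30%), with iff-1 added to the latter. Any overlap of a region gave 8 (28%) and 6 (24%), with ife-1 added to each. With summits matched within 200 bp, 5 joint summits of members had a partner in both replicates, against 3 within 100 bp. For ife-3 the replicate 2 partner lay 1053 bp upstream, outside its promoter window. The share of all joint summits so matched is not given here, so nothing is read from these counts. Leaving out replicate 1 or replicate 2, with the strongest 899 regions of the other, gave 3 members each time, iff-2, ife-2 and ifet-1, and 5 and 7 genes of the related lists. No paired analysis was possible because the series holds 1 group. The number of reads behind each peak is unknown, so how depth limits the weak summits of ife-1, ife-5 and ifg-1 cannot be given.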

Other observations

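Several members had joint summits within or behind the gene, outside their promoter windows, and none of these was reproducible. At ife-1, a germline-linked eIF4E gene with no joint promoter summit, one of 22.4 lay in an exon 246 bp past a start. Another of 29.4 lay 94 bp past the gene end, and both fell in the promoter window of acaa-2. The second had values of 15.8 in replicate 1 (99 bp past the end) and 11.6 in replicate 2 (190 bp past it). At ifg-1 the strongest nearby site was 410 bp past the gene end in an intron of dab-1, with 42.9 in the joint list (rank 1261), 22.7 in replicate 1 and 17.8 in replicate 2. It exceeded the ifg-1 promoter summit of 17.4. At ifet-1 joint summits of 19.9 in an exon and 20.4 in an intron stood beside the promoter site of 218. These sites were looked for within 1500 bp of each gene after the values were seen.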
